A study of Caenorhabditis elegans with 11 samples.

Results

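The genes described here are the 7 members of the endoderm specification cascade of *Caenorhabditis elegans*, *skn-1*, *med-1*, *med-2*, *end-1*, *end-3*, *elt-7* and *elt-2*, chosen by name and taken from a table of 46772 genes. RNA was sequenced from early embryos of 4 strains, which comprised *cfp-1* mutants (3 libraries), *set-2* mutants (3 libraries), *sin-3* mutants (2 libraries) and the wild-type strain N2 (3 libraries), to ask which transcripts depend on each of the mutated chromatin genes. The study's methods list the alleles as *cfp-1(tm6369)*, *set-2(bn129)* and *sin-3(tm1276)*, and the sample labels name the mutated gene only. CFP-1 is a CXXC zinc finger protein that brings the histone methyltransferase SET-2, the worm SET1, to promoters, and SIN-3 is the scaffold of a histone deacetylase complex. Embryos were released from young adults with hypochlorite and frozen, so that each library pools many embryos of mixed early age, with RNA loaded by the mother beside RNA made by the embryo. The study's methods call these embryos early-stage and give nearly all of them as below a set number of cells. The *cfp-1* allele is a partial deletion that is predicted to leave a truncated protein.

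In the worm embryo the whole intestine descends from a single blastomere, the E cell, whose mother, EMS, receives the maternal transcription factor SKN-1. SKN-1 switches on the paired GATA-type factors MED-1 and MED-2 in EMS, and these together with SKN-1 and the Wnt-regulated factor POP-1 switch on the GATA factors END-1 and END-3 in the E cell. END-1 and END-3 in turn start *elt-7* and *elt-2*, the GATA factors that drive the intestinal genes and then keep themselves on. The cascade therefore runs from a transcript that is abundant in the oocyte to transcripts that are made only in the small part of the embryo that becomes gut. In RNA from whole embryos, fewer cells of that lineage and less RNA per cell cannot be told apart.

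The 7 genes lie on 4 chromosomes in the Ensembl annotation of the WBcel235 assembly, and all are protein-coding. *skn-1* (WBGene00004804) lies on the minus strand of chromosome IV at 5651039 to 5660384, with 4 annotated transcripts that cover 2960 bp of exon. *med-1* (WBGene00003180; X, 12430609 to 12431133) and *med-2* (WBGene00003181; III, 6884503 to 6885027) are each a single exon of 525 bp on the plus strand. *end-1* (WBGene00001310; V, 13985128 to 13987074, 749 bp of exon) and *end-3* (WBGene00001311; V, 14014695 to 14015980, 865 bp) are neighbours on the plus strand of chromosome V, 27.6 kb apart with 4 protein-coding genes between them. *elt-7* (WBGene00015981; V, 4770670 to 4773086, 841 bp) lies on the same chromosome and *elt-2* (WBGene00001250; X, 10481240 to 10483441, 1558 bp) on the X chromosome. The *skn-1* exons share 41 bp with *csn-5* and the *end-3* exons share 3 bp with *srh-308*, in both cases on the opposite strand. The libraries kept the strand, but whether the counting used it is not given in the sources used here, so reads in these short stretches may belong to either gene.

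Each library held 21596949 to 35258557 counts (median 28788111). Replicates of a strain differed by more than sampling noise in each of the 10 pairs, with a chi-square per gene of 9.48 to 98.7, so no library was counted as a copy of another. In every mutant strain the transcript of the mutated gene was reduced but present. *cfp-1* averaged 1396 ± 178 normalized counts in *cfp-1* embryos and 4121 ± 120 in wild-type (SD, n = 3 each), *set-2* averaged 3147 ± 1180 in *set-2* embryos and 9112 ± 1020 in wild-type (SD, n = 3 each), and *sin-3* averaged 4178 ± 381 in *sin-3* embryos (SD, n = 2) and 9396 ± 1150 in wild-type (SD, n = 3). A normalized count is the number of counts divided by the size of its library, with sizes scaled so that most genes do not change (TMM). The label of embryos was checked against marker genes in CPM, which are counts scaled to a common library size. Transcription factors of other embryonic lineages were present in every library, with 563 to 1080 CPM summed over 15 genes, and yolk genes of the adult intestine summed to only 0.922 to 3.22 CPM over 6 genes. Sperm genes of the *msp* family summed to 0.475 to 1.42 CPM in the mutants and 1.78 to 3.19 CPM in wild-type over 31 genes.

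Along the cascade the transcript levels spanned more than 2 orders of magnitude when set on a common scale, CPM per kb of exon. In wild-type this span rests on *med-1* and *med-2*, as the other genes ran from 137 to 3.26. The counts of these 2 genes are uncertain, as reads with a low mapping score were removed and the genes are near-identical copies. *skn-1* was the highest in every strain, with a mean of 166 ± 11.4 CPM per kb in *cfp-1*, 98.9 ± 14.2 in *set-2* (SD, n = 3 each), 228 ± 8.99 in *sin-3* (SD, n = 2) and 137 ± 17.8 in wild-type (SD, n = 3). In wild-type it was followed by *elt-7* at 34.3 ± 1.58 CPM per kb, *end-1* at 27.6 ± 1.91, *elt-2* at 12.1 ± 1.57, *end-3* at 3.26 ± 0.671, *med-1* at 0.716 ± 0.254 and *med-2* at 0.444 ± 0.296 (SD, n = 3 each). Only *med-1* and *med-2* overlapped among neighbours in the wild-type order. The mutants had the same order of the first 5 genes by mean, but *elt-7* and *end-1* overlapped in *cfp-1* libraries, at 22.6 to 25.7 and 16.7 to 24.4 CPM per kb. Between the GATA pairs, *end-1* stood above *end-3* by a ratio per kb of 5.17 to 6.89 in *cfp-1*, 6.33 to 7.40 in *set-2* libraries, 7.46 and 9.04 in *sin-3* libraries, and 7.59 to 10.0 in wild-type. *elt-7* stood above *elt-2* by a ratio per kb of 3.12 to 3.62 in *cfp-1*, 1.92 to 2.55 in *set-2* libraries, 3.77 and 4.91 in *sin-3* libraries, and 2.55 to 3.07 in wild-type. The *end* ratio was thus below the wild-type libraries in all *cfp-1* and *set-2* libraries, and the *elt* ratio was above them in all *cfp-1* and *sin-3* libraries. These ratios were not tested.

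**Figure D1:**
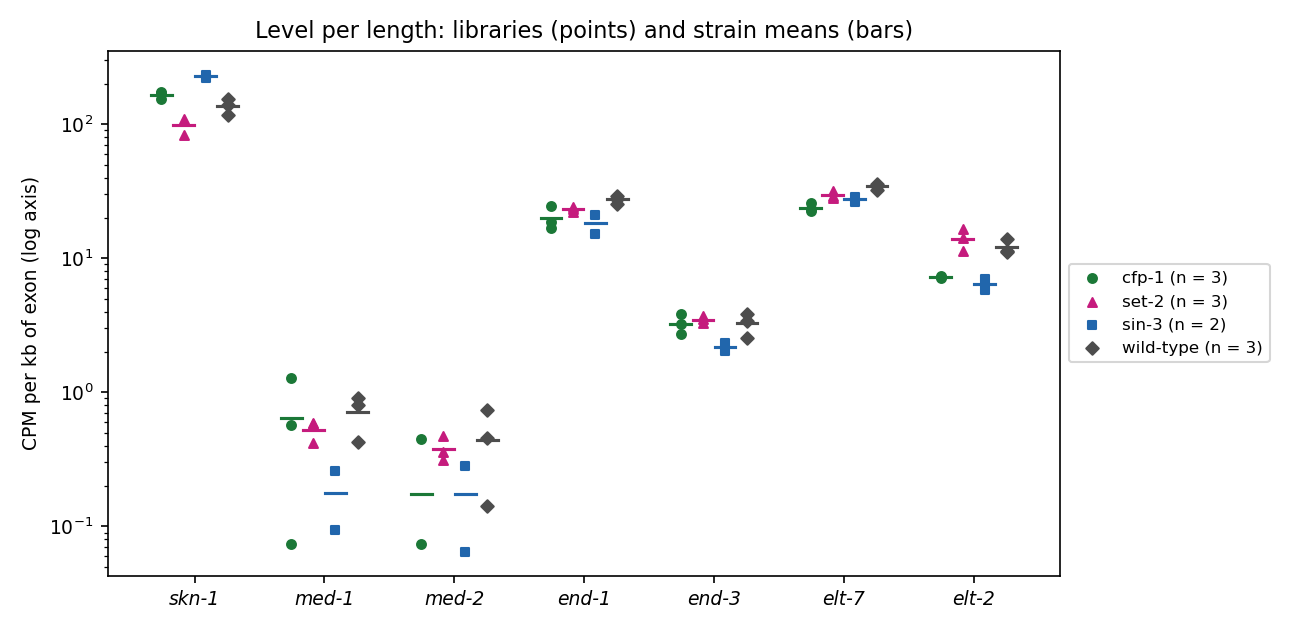
Level of each cascade gene in CPM per kb of exon on a log axis, by strain, with 1 point per library and a bar at the strain mean. The library of *cfp-1* embryos with 0 counts of *med-2* has no point on this axis and enters the mean. In wild-type *skn-1* averaged 137 and *med-2* 0.444 CPM per kb. The levels of *med-1* and *med-2* rest on few counts and are uncertain.

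Of the 7 genes, 5 passed the filter on low values (mean normalized count of all libraries over 10) and entered edgeR's quasi-likelihood test, in a fit to all 11 libraries with Benjamini-Hochberg adjustment over 11547 genes. *med-1* and *med-2*, with means of 7.97 and 4.45, did not pass this filter and are described by their counts. Genes with an adjusted p below 0.05 were called. The mutants share 1 set of wild-type libraries as their control, so their comparisons are not independent of each other.

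In *cfp-1* embryos 0 of the 5 genes were called higher and 2, *elt-2* and *elt-7*, were called lower against wild-type, where 12.7% of all tested genes were called higher and 11.4% lower. At an unadjusted p under 0.05 edgeR gave 1 higher and 3 lower, and DESeq2 called 0 higher and 3 lower. In *set-2* embryos 0 were called higher (0 at an unadjusted p under 0.05 by edgeR, 0 by DESeq2) and 1, *skn-1*, lower, where 7.40% of tested genes were higher and 7.04% lower. The *sin-3* embryos had 1 gene called higher, *skn-1*, and 2 called lower, *elt-2* and *end-1*, where 12.6% of tested genes were higher and 12.6% lower. For the 5 genes the log2 fold changes had a median of -0.47 for *cfp-1*, -0.22 for *set-2* embryos and -0.58 for *sin-3* embryos, where the medians of all tested genes were -0.00, -0.02 and -0.03. With 5 genes, each call moves these shares by a large step.

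**Figure D2:**
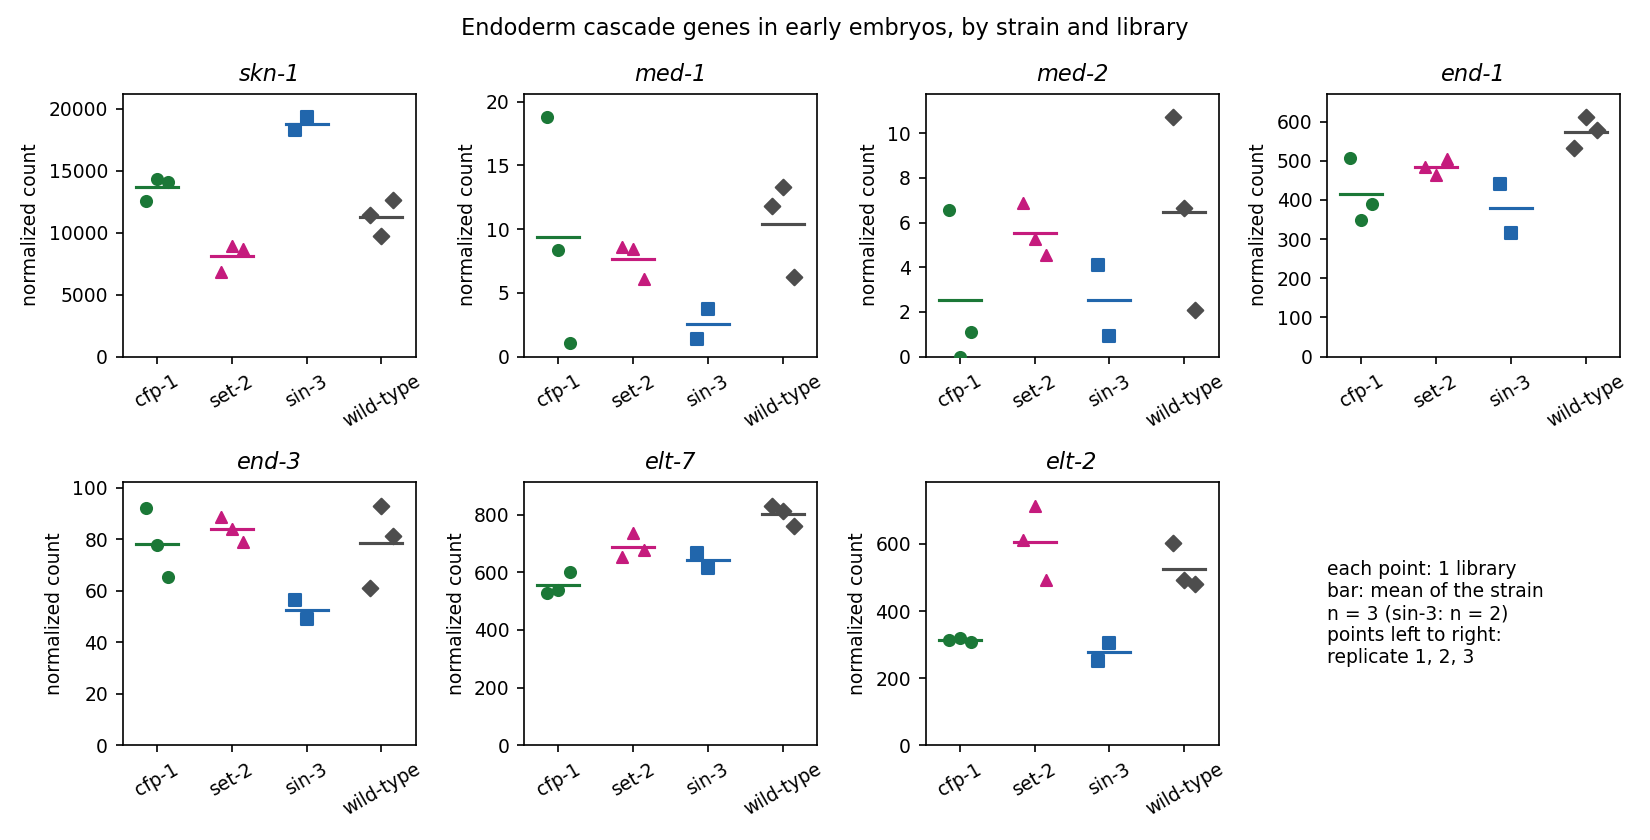
Normalized counts of the 7 cascade genes in each library (points, replicates from left to right) with the strain mean (bars). *skn-1* lay highest in *sin-3* (18241 and 19286) and *elt-2* lowest in *sin-3* and *cfp-1* (252 to 319), and *med-1* and *med-2* stayed under 20 normalized counts in every library.

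At the top of the cascade, *skn-1*, the maternal factor that specifies EMS, differed between strains in both directions. It had 12578, 14284 and 14095 normalized counts in *cfp-1* embryos, 6796, 8956 and 8641 in *set-2* embryos, 18241 and 19286 in *sin-3* embryos, and 11398, 9711 and 12633 in wild-type embryos. Both *sin-3* libraries lay above all wild-type libraries, all *set-2* libraries lay below them, and the *cfp-1* libraries overlapped with them. In *sin-3* the level was 1.67-fold that of wild-type (log2 fold change 0.74, SE 0.141, edgeR adjusted p = 0.00366). In *set-2* it was 0.723-fold (log2 fold change -0.47, SE 0.128, edgeR adjusted p = 0.0315), and in *cfp-1* it was 1.21-fold (log2 fold change 0.28, SE 0.128, edgeR adjusted p = 0.131), which did not pass the test. The *set-2* call did not hold without *set-2* replicate 1 (log2 fold change -0.33, edgeR adjusted p = 0.118), wild-type replicate 3 (-0.38, 0.139), wild-type replicate 1 (-0.46, 0.0575) or *sin-3* replicate 1 (-0.45, 0.0522), and with upper-quartile scaling it had an edgeR adjusted p of 0.0881.

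The mutants also differed from each other in *skn-1*, which gave the widest contrast among the 5 tested genes. *set-2* embryos had 0.433-fold the level of *sin-3* embryos (log2 fold change -1.21, SE 0.141, edgeR adjusted p = 0.000248). *cfp-1* embryos had 1.68-fold the level of *set-2* embryos (log2 fold change 0.75, SE 0.129, edgeR adjusted p = 0.00335) and 0.728-fold that of *sin-3* embryos (log2 fold change -0.46, SE 0.142, edgeR adjusted p = 0.0565). The last of these did not pass the test here, and was called with DESeq2 (adjusted p = 0.0149) and without *set-2* replicate 1 (edgeR adjusted p = 0.0351), *set-2* replicate 2 (0.0326) or wild-type replicate 2 (0.0438). The order of the strain means was therefore *set-2*, wild-type, *cfp-1* and *sin-3*, with *cfp-1* not distinguished from wild-type or from *sin-3*.

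The *med* genes, which are zygotic, lack introns and are expressed in EMS for a short time, were close to the limit of detection. *med-1* had 20, 7 and 1 counts in *cfp-1* libraries, 10, 8 and 8 in *set-2* libraries, 1 and 4 in *sin-3* libraries, and 11, 14 and 6 in wild-type. *med-2* had 7, 0 and 1 counts in *cfp-1* libraries, 8, 5 and 6 in *set-2* libraries, 3 and 1 in *sin-3* libraries, and 10, 7 and 2 in wild-type. A count of 3 or fewer was taken as being at the floor, which allows for counting error and not for duplicates from PCR. By this floor *med-2* was not measurable in either *sin-3* library, in 2 of the 3 *cfp-1* libraries or in wild-type replicate 3, and *med-1* was not in *cfp-1* replicate 3 or *sin-3* replicate 1.

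*med-1* and *med-2* are near-identical copies, and the authors removed reads with a low mapping score, so their counts are uncertain and the split between them cannot be relied on. Summed, the pair had 12.0 ± 12.0 normalized counts in *cfp-1*, 13.2 ± 2.45 in *set-2* (SD, n = 3 each), 5.10 ± 0.547 in *sin-3* (SD, n = 2) and 16.9 ± 7.54 in wild-type (SD, n = 3). Both *sin-3* libraries lay below the 3 wild-type libraries in the sum, at 5.48 and 4.71 against 22.5, 19.9 and 8.34. Fitted as a single gene, the sum had a log2 fold change of -1.72 in *sin-3* (SE 0.811, edgeR adjusted p = 0.139), -0.45 in *cfp-1* (SE 0.612, edgeR adjusted p = 0.623) and -0.36 in *set-2* (SE 0.596, edgeR adjusted p = 0.713), and none of these passed the test.

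*end-1*, the GATA factor that the *med* genes and SKN-1 start in the E cell, had 507, 348 and 389 normalized counts in *cfp-1* embryos, 485, 465 and 504 in *set-2* embryos, 440 and 317 in *sin-3* embryos, and 531, 610 and 577 in wild-type embryos. The libraries of each mutant all lay below the wild-type libraries. In *sin-3* the level was 0.659-fold that of wild-type (log2 fold change -0.60, SE 0.190, edgeR adjusted p = 0.0371), which passed the test. In *cfp-1* it was 0.724-fold (log2 fold change -0.47, SE 0.167, edgeR adjusted p = 0.062) and in *set-2* 0.846-fold (log2 fold change -0.24, SE 0.166, edgeR adjusted p = 0.337), and these did not pass. The *sin-3* call did not hold without *sin-3* replicate 1 (log2 fold change -0.83, edgeR adjusted p = 0.0608), *sin-3* replicate 2 (-0.38, 0.316), wild-type replicate 1 (-0.66, 0.0522), 2 (-0.54, 0.112) or 3 (-0.60, 0.0776), or *set-2* replicate 1 (-0.59, 0.0623) or 3 (-0.59, 0.0572). The *cfp-1* difference was called without *cfp-1* replicate 1, its highest library (log2 fold change -0.64, edgeR adjusted p = 0.0184), and with DESeq2 (adjusted p = 0.0441).

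*end-3*, its neighbour and partner in the E cell, had 91.9, 77.7 and 65.1 normalized counts in *cfp-1* embryos, 88.4, 84.1 and 78.7 in *set-2* embryos, 56.2 and 49.0 in *sin-3* embryos, and 61.1, 92.9 and 81.3 in wild-type embryos. Both *sin-3* libraries lay below the 3 wild-type libraries, and the other mutants overlapped with wild-type. The log2 fold change was -0.00 in *cfp-1* (SE 0.221, edgeR adjusted p = 0.995), 0.09 in *set-2* (SE 0.219, edgeR adjusted p = 0.802) and -0.58 in *sin-3* (SE 0.257, edgeR adjusted p = 0.118), with no call. Between mutants, *set-2* was 1.59-fold above *sin-3* (log2 fold change 0.67, SE 0.256, edgeR adjusted p = 0.0528), which did not pass, and was called without *cfp-1* replicate 1 (edgeR adjusted p = 0.0434) or wild-type replicate 1 (0.0396). At these counts the standard errors of *end-3* were wider than those of *end-1*, so that a change of the size seen for *end-1* in *cfp-1* could not be told from none.

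*elt-7*, an intestinal GATA factor that acts with *elt-2*, had 527, 541 and 600 normalized counts in *cfp-1* embryos, 653, 738 and 677 in *set-2* embryos, 669 and 617 in *sin-3* embryos, and 831, 814 and 761 in wild-type embryos. Each mutant library lay below all wild-type libraries. The level fell to 0.693-fold in *cfp-1* (log2 fold change -0.53, SE 0.111, edgeR adjusted p = 0.00599). In *set-2* it was 0.859-fold (log2 fold change -0.22, SE 0.110, edgeR adjusted p = 0.193) and in *sin-3* 0.801-fold (log2 fold change -0.32, SE 0.125, edgeR adjusted p = 0.0808), and neither passed the test. *elt-7* was not shown to differ between mutants, with a log2 fold change of -0.31 in *cfp-1* against *set-2* (SE 0.111, edgeR adjusted p = 0.064), -0.21 in *cfp-1* against *sin-3* (SE 0.124, edgeR adjusted p = 0.297) and 0.10 in *set-2* against *sin-3* (SE 0.124, edgeR adjusted p = 0.534). The contrast of *cfp-1* with *set-2* was called with DESeq2 (adjusted p = 0.0314).

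*elt-2*, the main regulator of intestinal genes, gave the largest decreases among the 5 tested genes. It had 313, 319 and 307 normalized counts in *cfp-1* embryos, 612, 714 and 492 in *set-2* embryos, 252 and 303 in *sin-3* embryos, and 603, 492 and 479 in wild-type embryos. All *cfp-1* and *sin-3* libraries lay below all wild-type libraries, and the *set-2* libraries overlapped with wild-type. The level fell to 0.597-fold in *cfp-1* (log2 fold change -0.74, SE 0.162, edgeR adjusted p = 0.00703) and to 0.531-fold in *sin-3* (log2 fold change -0.91, SE 0.186, edgeR adjusted p = 0.00499). In *set-2* it was 1.15-fold (log2 fold change 0.21, SE 0.159, edgeR adjusted p = 0.392). Without *sin-3* replicate 1 the *sin-3* call did not hold (log2 fold change -0.77, edgeR adjusted p = 0.0787), and the *cfp-1* call held with each library left out in turn.

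*elt-2* also separated the mutants, as *set-2* stood apart from the other mutants. *cfp-1* embryos had 0.517-fold the level of *set-2* embryos (log2 fold change -0.95, SE 0.162, edgeR adjusted p = 0.00322), and *set-2* embryos had 2.17-fold the level of *sin-3* embryos (log2 fold change 1.12, SE 0.187, edgeR adjusted p = 0.00134). Between *cfp-1* and *sin-3* the log2 fold change was 0.17 (SE 0.183, edgeR adjusted p = 0.591).

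**Figure D3:**
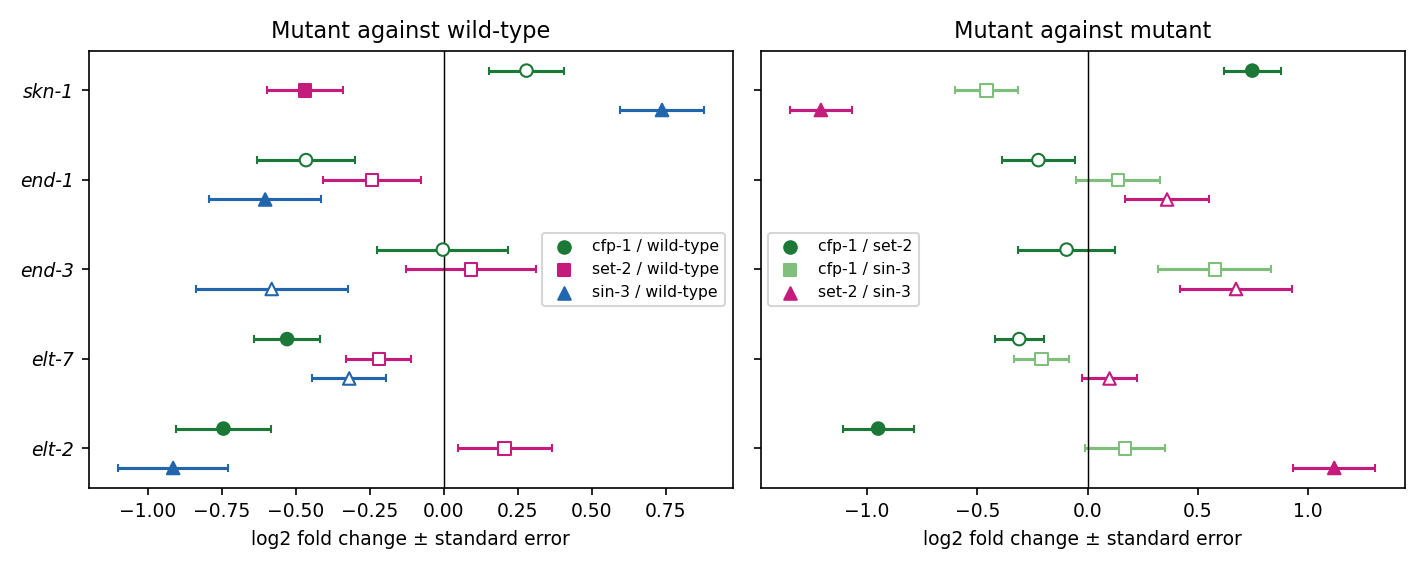
Log2 fold change ± standard error of the 5 tested genes, each mutant over wild-type (left) and each mutant over another mutant (right). Filled points passed the edgeR test at an adjusted p under 0.05 and open points did not. *elt-2* lay at -0.74 in *cfp-1* and -0.91 in *sin-3*, and *skn-1* at 0.74 in *sin-3* and -0.47 in *set-2*.

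Counted over the 5 genes, *cfp-1* against *set-2* had 1 called higher (*skn-1*) and 1 lower (*elt-2*), where 12.6% of tested genes were higher and 9.52% lower. *cfp-1* against *sin-3* had 0 called in either direction, where 6.24% of tested genes were higher and 5.34% lower. There, 1 gene was higher and 1 lower at an unadjusted p under 0.05 by edgeR, and DESeq2 called 0 higher and 1 lower. *set-2* against *sin-3* had 1 called higher (*elt-2*) and 1 lower (*skn-1*), where 19.9% of tested genes were higher and 20.7% lower. The pair of strains with the most calls over all genes was thus also that with the widest contrasts in *skn-1* and *elt-2*.

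The balance of oocyte genes and of lineage transcription factor genes differed between the strains. The mean log2 CPM of 15 transcription factor genes of other embryonic lineages minus that of 15 oocyte genes was -0.721, -0.938 and -1.56 in *cfp-1* libraries, 0.357, 0.724 and 0.085 in *set-2* libraries, -1.39 and -1.46 in *sin-3* libraries, and 0.753, 0.254 and 0.0916 in wild-type. All *cfp-1* and *sin-3* libraries lay below all wild-type libraries, and the *set-2* libraries overlapped with them. In *cfp-1*, 8 of the 15 lineage factors were called lower and 0 higher (0 higher at an unadjusted p under 0.05 by edgeR, 0 by DESeq2), and 9 of 13 tested oocyte genes were called higher and 0 lower (0 and 0). In *sin-3*, 9 lineage factors were lower and 1 higher, and 13 of 13 oocyte genes were higher. In *set-2*, 0 lineage factors were called (1 higher and 0 lower at an unadjusted p under 0.05 by edgeR, 0 by DESeq2) and 2 oocyte genes were higher. Of all tested genes, 12.7% were called higher and 11.4% lower in *cfp-1*, and 12.6% each way in *sin-3*. In *set-2* these shares were 7.40% and 7.04%. The summed level of the oocyte genes was 2980 to 3390 CPM in *cfp-1*, 1950 to 2290 in *set-2* libraries, 3420 and 3470 in *sin-3* libraries, and 1900 to 2290 in wild-type, and that of the lineage factors was 563 to 644 CPM in *cfp-1*, 725 to 1080 in *set-2* libraries, 633 and 634 in *sin-3* libraries, and 770 to 911 in wild-type.

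*elt-2* was called lower in *cfp-1* and *sin-3*, where this difference was low. *end-3* had a log2 fold change of -0.00 in *cfp-1* (SE 0.221). *skn-1* was called lower in *set-2*, where the difference overlapped with wild-type. The cause of these values was not tested. With the difference of lineage factors minus oocyte genes as a covariate in the fit, *elt-2* had a log2 fold change of -0.20 in *cfp-1* (SE 0.300, edgeR adjusted p = 0.737) and -0.23 in *sin-3* (SE 0.362, edgeR adjusted p = 0.734). *elt-7* in *cfp-1* kept its size but not its call (log2 fold change -0.53, SE 0.235, edgeR adjusted p = 0.200), as did *skn-1* in *sin-3* (log2 fold change 0.64, SE 0.333, edgeR adjusted p = 0.291). *end-1* in *sin-3* had a log2 fold change of -0.50 (SE 0.436, edgeR adjusted p = 0.531). The covariate did not overlap between *cfp-1* or *sin-3* and wild-type, and the standard errors grew accordingly. It may hold the age of the embryos, a changed load of RNA from the mother, or both. Neither can be told apart from the mutation in these libraries.

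The genes were also set against the lineage factors of the same library. The mean log2 CPM of these factors was itself lower in *cfp-1* (4.535, 4.542 and 4.197) and *sin-3* (4.292 and 4.392) than in wild-type (5.217, 4.806 and 4.804). A gene can therefore stand higher on this scale without a rise of its own, as *elt-7* did in *sin-3* (fitted log2 fold change -0.32). *skn-1* exceeded the mean of the lineage factors by 4.51 ± 0.255 on the log2 scale in *cfp-1*, 3.11 ± 0.309 in *set-2* (SD, n = 3 each), 5.06 ± 0.0133 in *sin-3* (SD, n = 2) and 3.71 ± 0.287 in wild-type (SD, n = 3), without overlap of any mutant with wild-type. *elt-7* stood at -0.10 ± 0.296 in *cfp-1*, -0.44 ± 0.266 in *set-2* (SD, n = 3 each), 0.19 ± 0.153 in *sin-3* (SD, n = 2) and -0.09 ± 0.198 in wild-type (SD, n = 3), with *cfp-1* and *set-2* overlapping with wild-type and *sin-3* above it. *elt-2* stood at -0.93 ± 0.174 in *cfp-1*, -0.64 ± 0.160 in *set-2* (SD, n = 3 each), -1.02 ± 0.117 in *sin-3* (SD, n = 2) and -0.71 ± 0.0598 in wild-type (SD, n = 3).

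On this relative scale both *sin-3* libraries lay below wild-type in *elt-2*, by 0.314 on average, and *cfp-1* overlapped with wild-type, with a mean difference of -0.22. *end-1* differed by 0.04 in *cfp-1* embryos, -0.37 in *set-2* embryos and -0.015 in *sin-3* embryos, all overlapping with wild-type. *end-3* differed by 0.52 in *cfp-1*, where its 3 libraries lay above wild-type though its fitted log2 fold change was -0.00. It differed by -0.02 in *set-2* embryos and 0.05 in *sin-3* embryos. Of the 15 differences from wild-type, none had an adjusted p under 0.300 in an exact permutation test (two-sided, Benjamini-Hochberg over 15 tests), and the smallest p that 3 or 2 libraries against 3 allow is 0.1, so these tests could not have passed.

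**Figure D4:**
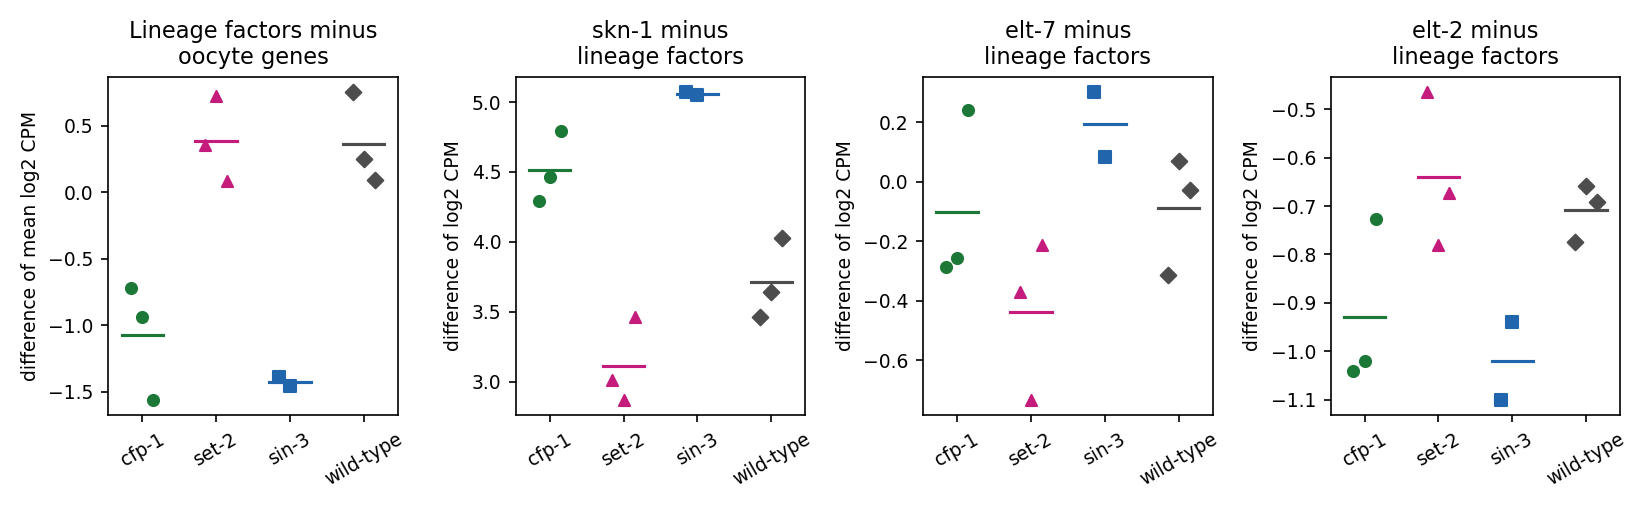
Left, mean log2 CPM of 15 lineage transcription factor genes minus that of 15 oocyte genes in each library. Other panels, log2 CPM of *skn-1*, *elt-7* and *elt-2* minus the mean of the lineage factors in the same library. Points are libraries and bars strain means. The *cfp-1* and *sin-3* libraries lay between -1.56 and -0.721 in the left panel, below the wild-type libraries at 0.0916 to 0.753.

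Upstream of *skn-1* in its maternal control, 3 of 9 genes were called higher in *cfp-1*, 6 of 9 in *sin-3* and 0 of 9 in *set-2*, and 0 were called lower in any mutant (0 at an unadjusted p under 0.05 by edgeR in each, 0 by DESeq2, for these zero counts). Of all tested genes, 12.7% were called higher and 11.4% lower in *cfp-1*, and 12.6% each way in *sin-3*. In *set-2* these shares were 7.40% and 7.04%. Whether the counts of this list exceed the shares was not tested. The list had a median log2 fold change of 0.24 for *cfp-1*, -0.19 for *set-2* embryos and 0.61 for *sin-3* embryos. The largest increase was in *oma-2*, an oocyte maturation factor, with 17720, 19440 and 21730 normalized counts in *cfp-1*, 5854, 5610 and 7342 in *set-2* libraries, 20640 and 17350 in *sin-3* libraries, and 6392, 6345 and 7450 in wild-type. It was 2.92-fold higher in *cfp-1* (log2 fold change 1.54, SE 0.133, edgeR adjusted p = 3.54e-05) and 2.82-fold higher in *sin-3* (SE 0.144, edgeR adjusted p = 0.000125), with all these libraries above wild-type. Its paralogue *oma-1* rose 1.49-fold in *cfp-1* (edgeR adjusted p = 0.00473). *mex-1*, an RNA-binding protein needed to restrict SKN-1 to its proper cells, rose in *cfp-1* (log2 fold change 0.58, edgeR adjusted p = 0.014) and in *sin-3* (0.81, 0.00453), and *pie-1*, which blocks transcription in the germ lineage, rose 1.76-fold in *sin-3* (0.0327). With the covariate of lineage factors minus oocyte genes, *pie-1* turned to a log2 fold change of -0.52 in *sin-3* (edgeR adjusted p = 0.534), *mex-1* had -0.01 in *cfp-1* (0.99) and 0.07 in *sin-3* (0.912), *oma-1* had 0.49 in *cfp-1* (0.234) and *oma-2* had 0.85 in *sin-3* (0.124), and the call of *oma-2* in *cfp-1* held. The list shares *spn-4* with the oocyte genes above, and in *sin-3* it had 3 called without *sin-3* replicate 1 or 2. The *mex-1* call in *cfp-1* did not hold without *cfp-1* replicate 3 (edgeR adjusted p = 0.0576) or wild-type replicate 1 (0.0564), nor the *pie-1* call in *sin-3* without *sin-3* replicates 1 or 2 (0.119 and 0.14) or wild-type replicates 1 or 2 (0.0985 and 0.0687).

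The Wnt signal that polarizes EMS and the POP-1 machinery that reads it gave mixed changes. In *cfp-1* 1 of 12 genes was called higher and 2 lower, in *set-2* 0 higher (0 at an unadjusted p under 0.05 by edgeR, 0 by DESeq2) and 1 lower, and in *sin-3* 4 higher and 1 lower, with median log2 fold changes of -0.20, -0.12 and 0.21. *mom-2*, the Wnt ligand, was 1.77-fold higher in *cfp-1* (log2 fold change 0.83, SE 0.117, edgeR adjusted p = 7e-04) and 1.52-fold higher in *sin-3* (log2 fold change 0.61, SE 0.128, edgeR adjusted p = 0.0061). *sys-1*, the beta-catenin that activates with POP-1, was 0.677-fold in *cfp-1* (edgeR adjusted p = 0.018), and *wrm-1*, the beta-catenin that lowers nuclear POP-1, was 0.757-fold (0.02). *mom-4*, a kinase of the same pathway, was 0.766-fold in *set-2* (edgeR adjusted p = 0.0189) and 1.52-fold in *sin-3* (0.00214). Of the parallel MES-1 and SRC-1 pathway, *mes-1* rose 1.62-fold in *sin-3* (edgeR adjusted p = 0.0041) and *src-1* was 0.725-fold (0.0154). Leaving out single libraries gave 1 to 5 calls in *cfp-1*, where 0 were lower without *cfp-1* replicate 3 or wild-type replicates 1 or 3 and 4 were lower without *set-2* replicate 2. In *set-2* it gave 0 without *set-2* replicate 1 or wild-type replicate 3 and 2 without *set-2* replicate 2, and in *sin-3* 2 without *sin-3* replicate 1 and 3 without *sin-3* replicate 2. Of the genes named, *sys-1* was not called without *cfp-1* replicates 1 or 3 or wild-type replicates 1 or 3 (edgeR adjusted p = 0.0529 to 0.0766), *wrm-1* without *cfp-1* replicate 3 or wild-type replicates 1 or 3 (0.0653 to 0.079), and *mom-4* in *set-2* without *set-2* replicate 1 or wild-type replicate 3 (0.0789 and 0.0963). In *sin-3*, *mom-2* was not called without *sin-3* replicate 1 (0.0691), and *src-1* was not without *sin-3* replicates 1 or 2 (0.149 and 0.0782). With the same covariate none of the named calls in *cfp-1* or *sin-3* held, and the log2 fold changes were -0.09 for *sys-1* and -0.11 for *wrm-1* in *cfp-1* and -0.14 for *src-1* in *sin-3*, and 0.93 for *mom-2* in *cfp-1* (edgeR adjusted p = 0.0589). The other values in *sin-3* were 0.74 for *mom-2* (0.61 without it), 0.56 for *mes-1* (0.70) and 0.40 for *mom-4* (0.60).

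In the MS cell, the sister of E, SKN-1 and the *med* genes start a mesodermal programme in place of the *end* genes. Of 4 genes of this branch and its surroundings, 2 were called higher and 2 lower in *cfp-1*, 0 in *set-2* (1 higher and 0 lower at an unadjusted p under 0.05 by edgeR, 1 higher and 0 lower by DESeq2), and 1 higher and 2 lower in *sin-3*. Over all tested genes the shares were 12.7% higher and 11.4% lower in *cfp-1*, and 12.6% each way in *sin-3*. For *set-2* they were 7.40% and 7.04%. With 4 genes, each call moves the share of the list by a large step. *tbx-35*, the T-box gene that the *med* genes start in MS, had 172, 47.8 and 82.5 normalized counts in *cfp-1*, 93.6, 90.4 and 97.7 in *set-2* libraries, 80.9 and 65.0 in *sin-3* libraries, and 43.9, 40.8 and 38.6 in wild-type. All mutant libraries lay above wild-type. It was 2.46-fold higher in *cfp-1* (log2 fold change 1.30, SE 0.371, edgeR adjusted p = 0.0248), with a log2 fold change of 1.19 in *set-2* (edgeR adjusted p = 0.0501) and 0.82 in *sin-3* (0.164). Without *cfp-1* replicate 1 the *cfp-1* value was 0.67 (edgeR adjusted p = 0.0905), and it did not pass without wild-type replicates 1, 2 or 3 either (0.0588, 0.0673 and 0.0769).

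Downstream in MS, *ceh-51*, a homeobox gene that TBX-35 starts, went the other way, at 0.761-fold in *cfp-1* (edgeR adjusted p = 0.0437) and 0.705-fold in *sin-3* (0.0262). The muscle factor *hnd-1* was 0.708-fold in *cfp-1* (edgeR adjusted p = 0.00705) and 0.611-fold in *sin-3* (0.00238). *pal-1*, the caudal factor of the posterior lineages, which is also loaded by the mother, was 1.30-fold in *cfp-1* (edgeR adjusted p = 0.03) and 1.55-fold in *sin-3* (0.00426). Leaving out single libraries gave 1 to 4 calls in *cfp-1*, with 1 (lower) without *cfp-1* replicate 1 or wild-type replicate 3, 2 (both lower) without wild-type replicate 1, and 1 in each direction without *cfp-1* replicate 3 or wild-type replicate 2. In *set-2* it gave 1, higher, without *cfp-1* replicate 1 or 2. The *ceh-51* call in *cfp-1* held only without *set-2* replicate 2 or wild-type replicate 1 (edgeR adjusted p = 0.054 to 0.18 without any other library), and that in *sin-3* did not hold without *sin-3* replicates 1 or 2 or wild-type replicates 2 or 3 (0.0645 to 0.17). The *pal-1* call in *cfp-1* did not hold without *cfp-1* replicates 1 or 3 or wild-type replicates 1 or 3 (0.0716 to 0.107), and both *hnd-1* calls held with each library left out. With the covariate none of these calls held (edgeR adjusted p = 0.127 to 0.599). The log2 fold changes of *tbx-35* (2.02) and *ceh-51* (-0.67) in *cfp-1* and *ceh-51* (-0.85) in *sin-3* were larger with it. Their standard errors were wider (0.729, 0.258 and 0.316). Those of *hnd-1* (-0.285 in *cfp-1*, -0.44 in *sin-3*) and *pal-1* (0.22 in *cfp-1*, 0.44 in *sin-3*) were smaller in size than without it.

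Genes named for their dependence on SKN-1 in the zygote (*sdz*, 33 identifiers, 30 tested) were mostly not called, with 2 higher and 1 lower in *cfp-1*, 2 higher and 1 lower in *set-2*, and 0 higher (0 at an unadjusted p under 0.05 by edgeR, 0 by DESeq2) and 5 lower in *sin-3*. Over all tested genes, the shares called higher against wild-type were 12.7% (*cfp-1*), 7.40% (*set-2*), 12.6% (*sin-3*). The shares called lower were 11.4% (*cfp-1*), 7.04% (*set-2*), 12.6% (*sin-3*). Whether the 5 of 30 *sdz* genes called lower for *sin-3* exceed its share was not tested. Their median log2 fold change was 0.05 for *cfp-1*, 0.13 for *set-2* embryos and -0.18 for *sin-3* embryos, taken over the 30 tested *sdz* genes. *sdz-5* had 1383, 1318 and 1313 normalized counts in *cfp-1*, 1462, 1195 and 1510 in *set-2* libraries, 2214 and 1946 in *sin-3* libraries, and 2351, 2396 and 2130 in wild-type, and fell to 0.584-fold in *cfp-1* (edgeR adjusted p = 0.000689) and to 0.606-fold in *set-2* (0.002). *sdz-6* rose 2.22-fold in *cfp-1* (edgeR adjusted p = 0.00583) and 3.58-fold in *set-2* (0.000769), and *sdz-12* rose 2.65-fold in *set-2* (0.0478). In *sin-3*, *sdz-23*, *sdz-32* and *sdz-31* fell to 0.352-fold (edgeR adjusted p = 0.0273), 0.434-fold (0.0208) and 0.470-fold (0.0177). The *sin-3* calls of these genes did not hold without *sin-3* replicates 1 or 2 or wild-type replicate 2 (edgeR adjusted p = 0.0584 to 0.168), and the *set-2* call of *sdz-12* held only with a *cfp-1* library left out (0.0621 to 0.132 without any other). With the covariate none of the named calls in *cfp-1* or *sin-3* held (edgeR adjusted p = 0.0705 to 0.917). In *cfp-1* the log2 fold change was -0.845 for *sdz-5* (-0.777 without it) and 1.31 for *sdz-6* (1.15 without it). In *sin-3* it was -1.24 for *sdz-32* (-1.20 without the covariate). For *sdz-23* it was -0.205 (-1.51 without) and for *sdz-31* -0.40 (-1.09 without). The *sin-3* count was 0 without *sin-3* replicate 1 or 2, 1 without wild-type replicate 2 and 8 without *cfp-1* replicate 1. The *cfp-1* count was 1 higher and 6 lower without *cfp-1* replicate 1 and 5 higher and 1 lower without *cfp-1* replicate 2, and the *set-2* count was 3 higher and 2 lower without *cfp-1* replicate 1.

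At the bottom of the cascade, genes of the differentiated intestine were partly too low in wild-type to be compared. Of 21 genes 16 were tested, and 4 of these, *asp-1*, *asp-3*, *ifp-1* and *pept-1*, had a wild-type mean under the filter of 10 and were tested because they were higher in mutants. These 4 make up both genes called higher in *cfp-1*, 4 of the 5 called higher in *set-2* and 1 of the 3 called higher in *sin-3*, so the counts for this list do not support a direction. Called lower were 1 in *cfp-1*, 0 in *set-2* (0 at an unadjusted p under 0.05 by edgeR, 0 by DESeq2) and 0 in *sin-3* (4 at an unadjusted p under 0.05 by edgeR, 1 by DESeq2). Of all tested genes, 12.7% were called higher and 11.4% lower in *cfp-1*, and 12.6% each way in *sin-3*. In *set-2* these shares were 7.40% and 7.04%. *pept-1*, the peptide transporter of the gut, had 76.0, 41.9 and 41.3 normalized counts in *cfp-1*, 60.1, 105 and 51.5 in *set-2* libraries, 17.8 and 22.6 in *sin-3* libraries, and 7.498, 5.69 and 4.17 in wild-type. Each mutant library lay above all wild-type libraries. The wild-type libraries held 7, 6 and 4 counts, close to the floor of 3, so the size of the difference is uncertain, with fitted log2 fold changes of 3.18 in *cfp-1* (SE 0.429, edgeR adjusted p = 0.000524), 3.61 in *set-2* (SE 0.423, edgeR adjusted p = 0.00044) and 1.80 in *sin-3* (SE 0.501, edgeR adjusted p = 0.0219). The *sin-3* call did not hold without *sin-3* replicates 1 or 2 (edgeR adjusted p = 0.0691 and 0.148) or wild-type replicates 2 or 3 (0.0607 and 0.0646).

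*asp-1*, an aspartic protease of the intestine, had 23, 15 and 21 counts in *cfp-1* libraries, 38, 72 and 27 in *set-2* libraries, 3 and 12 in *sin-3* libraries, and 3, 6 and 2 in wild-type. As 2 of the wild-type libraries were at or under the floor no fold is given, and the gene was called higher in *cfp-1* (edgeR adjusted p = 0.0149) and *set-2* (0.00376). The intestinal filament gene *ifp-1* had 73, 96 and 41 counts in *set-2* libraries against 19, 5 and 4 in wild-type (edgeR adjusted p = 0.00966). *ifc-2*, another intestinal filament gene, was 2.93-fold in *sin-3* (edgeR adjusted p = 0.0432). *erm-1*, a membrane linker that is made in other epithelia as well, was 0.821-fold in *cfp-1* (edgeR adjusted p = 0.0452) and 1.42-fold in *sin-3* (0.00511). Without wild-type replicates 1 or 3 *asp-1* was not called in *cfp-1* (edgeR adjusted p = 0.0511 and 0.058). The *erm-1* call in *cfp-1* held only without *set-2* replicate 2 (0.0602 to 0.146 without any other library) and that in *sin-3* did not hold without *sin-3* replicate 2 (0.0775), and the *ifc-2* call did not hold without *set-2* replicates 1 or 3, either *sin-3* library or any wild-type library (0.0508 to 0.27). *ges-1*, a gut esterase and classic target of ELT-2 that is named here after its values were seen, had a log2 fold change of -0.65 in *cfp-1* (edgeR adjusted p = 0.105), 0.46 in *set-2* (0.256) and -0.90 in *sin-3* (0.0559), none of which passed the test. Muscle contraction genes, which also mark late embryos, summed to 35.9 to 91.9 CPM in *cfp-1*, 73.8 to 208 CPM in *set-2* libraries, 33.2 and 63.2 CPM in *sin-3* libraries, and 32.2 to 104 CPM in wild-type over 10 genes. Of 8 of these tested, 1 was called higher in *set-2*, where 5 were higher at an unadjusted p under 0.05 and 7.40% of all tested genes were called higher. The part of late embryos in the *set-2* values was not tested.

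Without single libraries the intestinal genes had 1 higher and 0 lower in *cfp-1* without wild-type replicate 1 or 3, and 3 higher in *set-2* without *cfp-1* replicate 3, *set-2* replicates 1 or 2, or wild-type replicates 2 or 3. In *sin-3* they had 0 called without *sin-3* replicate 2, 1 higher without *sin-3* replicate 1 or wild-type replicates 2 or 3, and 3 higher and 2 lower without *set-2* replicate 2. The calls of *pept-1*, *asp-1* and *ifp-1* in *set-2* held with each library left out in turn. These genes passed the filter only because they were higher in mutants, so their calls and this stability do not support a rise.

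The stress-response targets of SKN-1, a later role of the same factor in the larval gut, went in both directions in *sin-3*, with a median log2 fold change of -0.15 and 2 of 4 tested genes called higher. The genes called were *gst-30*, a glutathione transferase, at 1.73-fold (edgeR adjusted p = 0.0168), and *gcs-1*, which makes the precursor of glutathione, at 1.37-fold (0.0275). The other genes of the list, *gst-10* and *gst-4*, were at 0.436-fold (edgeR adjusted p = 0.0701) and 0.590-fold (0.512) with both *sin-3* libraries below wild-type, and 0 genes were called lower (1 at an unadjusted p under 0.05 by edgeR, 1 by DESeq2). With the covariate of lineage factors minus oocyte genes, *gst-30* had a log2 fold change of 0.07 (edgeR adjusted p = 0.941) and *gcs-1* of 6.33e-05 (1). In *cfp-1* and *set-2* 0 were called (1 higher in *cfp-1* and 1 lower in *set-2* at an unadjusted p under 0.05 by edgeR, 1 higher in *cfp-1* and 0 in *set-2* by DESeq2). Of all tested genes, 12.6% were called each way in *sin-3*, and 12.7% higher and 11.4% lower in *cfp-1*. In *set-2* these shares were 7.40% and 7.04%. With 4 genes tested, each call moves the share of the list by a large step. The *sin-3* count was 0 without *sin-3* replicates 1 or 2 or wild-type replicates 1 or 3, and 1 without wild-type replicate 2. *gst-30* did not pass without *sin-3* replicates 1 or 2 or wild-type replicates 1 or 3 (edgeR adjusted p = 0.0524 to 0.0993), and *gcs-1* did not without any of the *sin-3* or wild-type libraries (0.0531 to 0.155). In *cfp-1* the count was 2 higher without *cfp-1* replicate 1 and 1 higher without *set-2* replicate 2 or wild-type replicate 2.

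The GATA factors of other tissues had 1 of 4 tested genes called lower in *cfp-1* and 1 of 4 in *sin-3*, in both cases *elt-1*, the factor of the epidermis. The share of all tested genes called lower was 11.4% in *cfp-1* and 12.6% in *sin-3*. *elt-1* had 2957, 2442 and 2238 normalized counts in *cfp-1*, 3934, 5139 and 3919 in *set-2* libraries, 2270 and 2296 in *sin-3* libraries, and 4178, 3951 and 4140 in wild-type. It fell to 0.623-fold in *cfp-1* (log2 fold change -0.68, SE 0.128, edgeR adjusted p = 0.00344) and to 0.558-fold in *sin-3* (log2 fold change -0.84, SE 0.147, edgeR adjusted p = 0.00238), and in *set-2* its log2 fold change was 0.08 (edgeR adjusted p = 0.691). Its *cfp-1* and *sin-3* libraries lay below all wild-type libraries, as those of *elt-2* did, and both calls held with each library left out. With the covariate, to which *elt-1* itself belongs as a lineage factor (as does *elt-3*), its log2 fold change was -0.16 in *cfp-1* (edgeR adjusted p = 0.686) and -0.18 in *sin-3* (0.712). Neither call held with a block by the number in the sample title, a fit with little to judge the spread by.

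**Figure D5:**
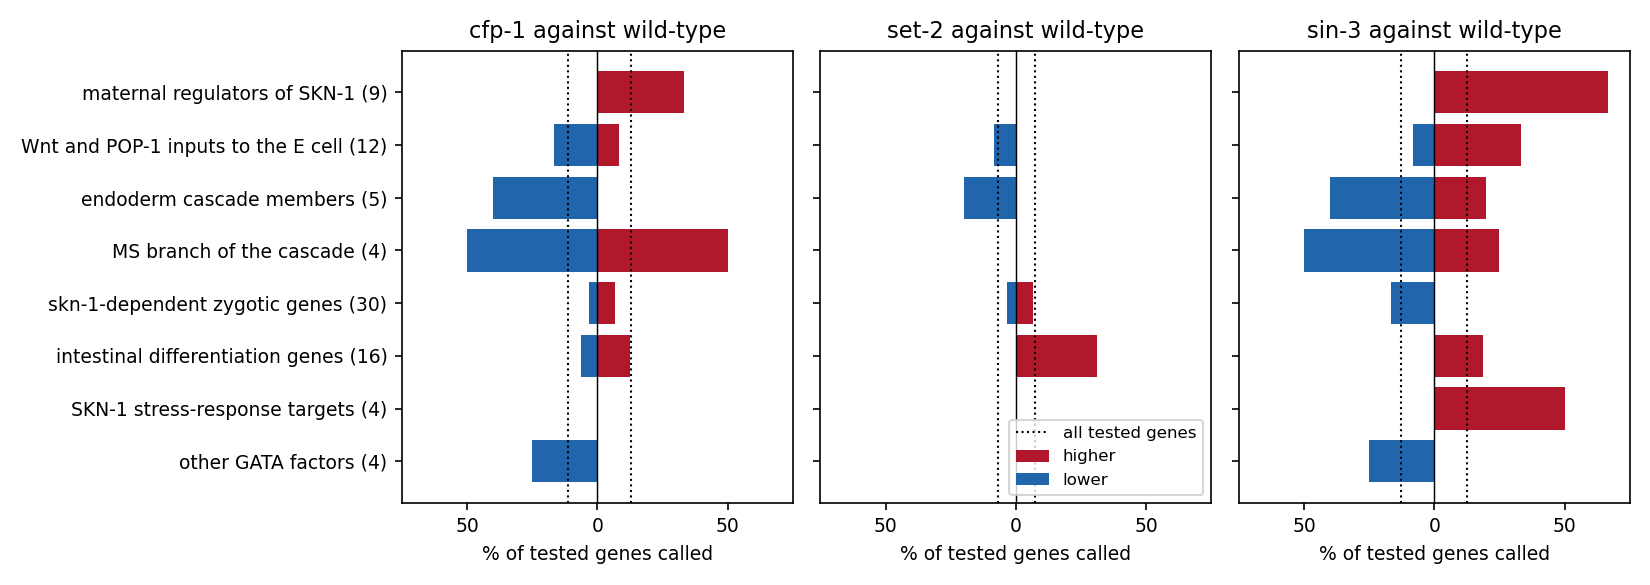
Share of the tested genes of each list that edgeR called higher (right of 0) or lower (left of 0) in each mutant against wild-type, with the number tested in brackets and dotted lines at the share of all tested genes. The maternal regulators of SKN-1 were called higher in 6 of 9 cases in *sin-3* and 3 of 9 in *cfp-1*. Of the 5 of 16 intestinal genes called higher in *set-2*, 4 had a wild-type mean under the filter of 10.

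The genes whose log2 CPM followed a member most closely over the 11 libraries were named by Pearson's r, as a description of these libraries, which are grouped by strain and may differ in embryo age. For *skn-1* they were *sqv-5* (r = 0.990), *lsd-1* (0.982) and C50F2.2 (0.980). For *elt-2* they were *ceh-6* (r = 0.989), F21A3.11 (0.988) and Y75B8A.19 (0.979), and for *elt-7* K05C4.5 (0.966), *pmk-1* (0.966) and *citk-2* (0.956). *end-1* was followed by *his-47* (r = 0.949), *asm-1* (0.937) and *nst-1* (0.931), and *end-3* by *inos-1* (0.939), *scrm-7* (0.938) and W06D4.3 (0.933). No other member of the cascade was among the 3 closest genes of any member.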

How the data were processed

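The authors made stranded libraries from polyadenylated RNA, mapped the reads to the WS254 genome with STAR 2.4.1d, removed reads with a mapping score below 10 with SAMtools 0.1.19, counted reads per gene with HTSeq 0.7.2 and deposited raw counts. Their deposited tables of mean counts, fold changes and p-values for each mutant were not used. Counts were tested in R 4.3.3 with edgeR 4.0.16 (quasi-likelihood test, TMM factors, protein-coding genes with a mean normalized count above 10, 1 fit to the 11 libraries). DESeq2 1.42.0 was an alternative, with other scalings, filters, replicate blocks, a covariate and each library left out. The standard error was the absolute log2 fold change divided by the square root of F. The procedure was tested on simulated data. Positions and exon lengths came from the Ensembl WBcel235 annotation, not from WS254. Per pathway list and mutant, up to 3 called genes per direction with the largest fold change and no overlap with wild-type were named. *ges-1* was named outside this rule, after its values were seen. The members and lists were chosen with earlier results of these data known. The study's methods call the replicates independent. Figures were drawn with matplotlib 3.10.9 in Python 3.11.15.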

Additional observations from a re-analysis of the deposited data

How the results depend on the processing

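The number of cascade genes called changed with several settings, and the cause was not tested. With a replicate block by the number in the sample title it was 0 for each mutant against wild-type and for *set-2* against either other mutant, and *end-1* in *sin-3* turned to a log2 fold change of 0.0323 (edgeR adjusted p = 0.979). No title number held both *sin-3* and wild-type, and wild-type replicate 3 and *sin-3* replicate 2 were alone in theirs. This block thus left little to judge the spread by, and the lost calls are not read as a result. With the covariate of lineage factors minus oocyte genes the number of cascade genes called was 0 in the same comparisons except *set-2* against wild-type. *set-2* against wild-type also had 0 with upper-quartile factors, an adjusted p under 0.01 or only the 2 strains compared. *cfp-1* against *sin-3* had 1 with DESeq2, DESeq2 size factors, only the 2 strains compared, the replicate block by replicate number, or TMM factors from all listed genes, the last chosen after seeing the data. *set-2* against *sin-3* had 4 with upper-quartile factors, which moved the median of all genes in *set-2* to 0.10. Leaving out single libraries gave 2 to 3 calls in *cfp-1*, 0 to 1 in *set-2* and 1 to 3 in *sin-3* against wild-type, 2 in *cfp-1* against *set-2*, 0 to 1 in *cfp-1* against *sin-3* and 2 to 3 in *set-2* against *sin-3*. Libraries with the same number deviated together in part only. By replicate number 7 of 15 pairs had a correlation over 0.1 (range -0.41 to 0.43), with all 3 pairs of replicate 3 at 0.30 to 0.43 and the 3 pairs of replicate 2 among mutants at 0.21 to 0.27, but those of replicate 2 with wild-type at -0.41 to -0.21. By title number 2 of 6 pairs did (range -0.38 to 0.30). As not every pair was over 0.1, the numbers were not taken as pairs. Over the lists, 362 of 462 counts stayed within 1.5 times. The low counts of *med-1* and *med-2* limit what can be said of them.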
